A study of Mus musculus with 4 samples.

Results

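The phagocyte NADPH oxidase is the enzyme complex with which neutrophils and macrophages make superoxide. Its 5 listed genes here were Cyba, Cybb, Ncf1, Ncf4 and Rac2, and members were all array probes whose annotation named 1 of these symbols and no other gene. That gave 5 of 28845 probes, for 4 of the 5 genes: 2 probes for Cyba and 1 each for Cybb, Ncf4 and Rac2. Ncf1 had no such probe and was left out. All 5 probes had a value on every array. They are described probe by probe, because the 2 probes of Cyba disagreed.

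In a resting phagocyte the membrane pair gp91phox (Cybb, also called Nox2) and p22phox (Cyba) forms flavocytochrome b558, which is silent. On stimulation cytosolic subunits, among them p47phox (Ncf1) and p40phox (Ncf4), move to the membrane, and the small GTPase Rac joins them in its GTP-bound form. Electrons then pass from NADPH in the cytosol to oxygen outside or in the phagosome. In liver the complex is best known from Kupffer cells, recruited monocytes and neutrophils, while Cyba also serves other Nox enzymes in non-phagocytic cells.

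Liver RNA came from male C57Bl/6J mice, an inbred strain, fed 1 of 4 regimens: an atherogenic diet for 6 weeks, the same for 24 weeks, an atherogenic diet with high fat for 6 weeks, or that diet for 24 weeks. Each array held the RNA of 1 regimen in Cy5 and that of chow-fed mice of the same strain and sex in Cy3. The chow duration matched the diet's in the labels, except that none was given for the atherogenic 6-week array. There was 1 array per regimen and no dye swap. The sources used here do not give the diets' composition, the mice's age, or how many mice an RNA came from.

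Values are log2 ratios of diet over chow. They carry no level of their own, so neither the liver origin nor the abundance of a subunit could be checked from them. Between 27951 and 28806 probes had a value on an array, 27870 had one on all 4, and array medians lay between -0.06 and 0.02. The SD across probes was 0.53 at 6 weeks and 0.46 at 24 weeks for the plain atherogenic diet (without added high fat); for the high-fat diet it was 0.37 and 0.39. With 4 arrays in all, their number sets how precise a value can be. All log2 ratios, with their SDs, SEs and intervals, and all folds assume that the deposited logarithms have base 10. That base was inferred from how widely the deposited values vary. With base 2 the mean of Cybb would be 1.244-fold over chow, against 2.065-fold with base 10.

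RefSeq's table of sequences around gene starts (GRCm38.p6) held 2 of the 4 measured genes, Cybb and Cyba. They are shown because these genes encode the membrane pair and had the highest probe values. Each runs 5′ to 3′ on the minus strand, from 250 bases before to 30 bases after the annotated start. Capitals mark GAGGAA or its other-strand form TTCCTC. This purine-rich motif is of the kind bound by PU.1, the myeloid transcription factor encoded by Spi1.
Cybb, chrX:9469295-9469574: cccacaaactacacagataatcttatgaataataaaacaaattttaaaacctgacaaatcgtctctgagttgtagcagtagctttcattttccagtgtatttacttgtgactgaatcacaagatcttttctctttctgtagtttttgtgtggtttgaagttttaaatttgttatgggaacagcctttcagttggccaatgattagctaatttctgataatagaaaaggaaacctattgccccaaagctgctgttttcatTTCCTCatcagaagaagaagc
Cyba, chr8:122432911-122433190: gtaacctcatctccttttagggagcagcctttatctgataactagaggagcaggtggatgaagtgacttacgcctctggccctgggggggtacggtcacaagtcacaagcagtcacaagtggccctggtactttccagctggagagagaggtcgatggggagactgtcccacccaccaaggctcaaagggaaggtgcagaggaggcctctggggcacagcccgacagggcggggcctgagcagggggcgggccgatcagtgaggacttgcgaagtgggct
The Cybb window held 1 match, on the opposite strand, and the Cyba window held 0. Over all 32851 windows of 280 bases in the table, 26.0% held the motif on either strand. The windows also differed in base composition, with 34.3% G and C for Cybb and 60.0% for Cyba, beside a median of 52.5%. A match describes the letters only.

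The first question was whether the subunits differed from chow across all 4 regimens. Higher ratios were found for Cybb and for 1 probe of Cyba, and lower ratios for Rac2 and for the other Cyba probe. In limma 2 of the 5 probes passed an adjusted p of 0.05 as higher and 2 as lower. Over all 27870 probes, 5.32% passed as higher and 5.01% as lower, 10.3% together. At an unadjusted p under 0.05 all 5 subunit probes passed, beside 28.4% of all probes. Every array had diet in Cy5, so a probe's dye preference and an effect of diet cannot be told apart. In bulk liver, more phagocytes and more RNA of a subunit per cell cannot be told apart either.

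**Figure D1:**
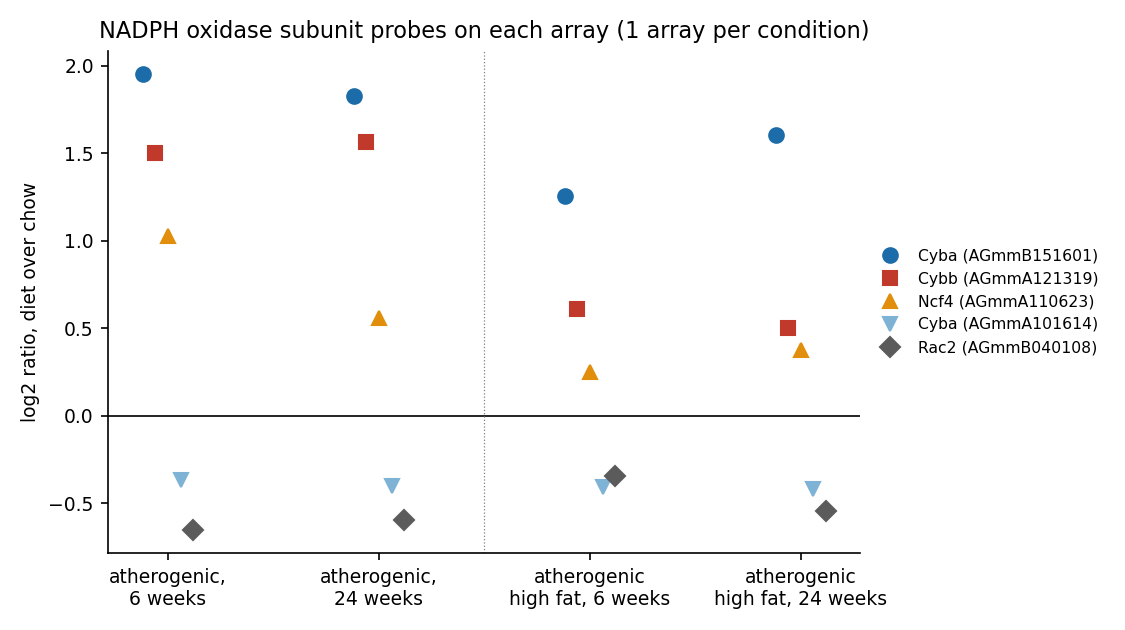
Log2 ratio of diet over chow (vertical axis) for the 5 subunit probes on the 4 arrays (horizontal axis), 1 point per probe and array, with the plain atherogenic arrays left of the dotted line. Cyba probe AGmmB151601, Cybb and Ncf4 lay above 0 on all 4 arrays and the other Cyba probe and Rac2 below 0; the Cybb points dropped from 1.50 and 1.57 to 0.61 and 0.50 with high fat.

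Cybb encodes gp91phox, the catalytic subunit that carries the electrons across the membrane. At 6 weeks its ratio was 1.50 with the plain atherogenic diet against 0.61 with high fat, and at 24 weeks 1.57 against 0.50. Both plain arrays lay above both high-fat arrays, as for 29.3% of all probes. All 4 lay above 0, as for 19.0%. As folds the ratios are 2.83 against 1.53, and 2.96 against 1.42. The mean was 1.05 ± 0.20 (limma SE, 4 arrays; 95% interval 0.56 to 1.53; adjusted p = 0.0248). Leaving out the atherogenic 6-week array ended the call (mean 0.89, limma adjusted p = 0.0669), as did leaving out the atherogenic 24-week array (0.87, adjusted p = 0.120).

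Cyba encodes p22phox, the partner that stabilises gp91phox and offers the docking site for p47phox. On probe AGmmB151601 its ratio was 1.96 and 1.83 with the plain diet at 6 and 24 weeks and 1.26 and 1.61 with high fat. The 4 values lay between the 99.6th and the 99.73rd percentile of their arrays, while those of Cybb ranged from the 94.15th to the 99.5th. The mean of 1.66 ± 0.13 (limma SE, 4 arrays; adjusted p = 0.00126) corresponds to 3.17-fold. This was the only one of the 5 probes whose call held in each of the 4 fits that left out 1 array, with adjusted p between 0.000745 and 0.0203.

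The other Cyba probe, AGmmA101614, gave -0.37 and -0.40 with the plain diet and -0.41 and -0.42 with high fat, in the order 6 and 24 weeks. Its range of 0.05 over the 4 arrays was the narrowest of the 5 probes, and its size the smallest, at -0.40 ± 0.08 (limma SE; adjusted p = 0.0319). The call ended in each fit that left out 1 array, with adjusted p between 0.0551 and 0.125 and means between -0.41 and -0.39.

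At 6 weeks the gap between the Cyba probes was 2.32 with the plain diet and 1.66 with high fat; at 24 weeks it was 2.23 and 2.03. On the mean ratio it came to 2.06, or 4.17-fold. Among 2224 genes with 2 probes the median gap was 0.21, and 11 genes, Cyba included, had a gap at least as large. Both probes passed for 48 of those genes, and for 5 of the 48 in opposite directions. The annotation ties the probes to different cDNA records (AK018713 for the higher, AK021200 for the lower). Probe sequences were not used here, so what each probe detects was not tested. The mean of both probes, 0.63 ± 0.09 (limma at the gene level, adjusted p = 0.0118), lies far from either and is a value neither probe gave.

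**Figure D2:**
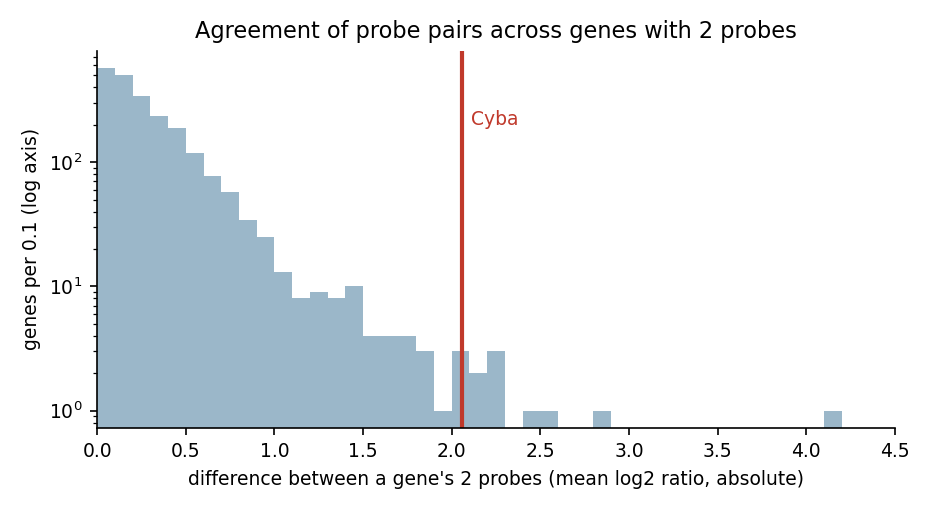
Histogram of the absolute difference between the mean log2 ratios of a gene's 2 probes (horizontal axis) over 2224 genes, with genes per bin of 0.1 on a log axis; the red line marks Cyba. The median gap was 0.21 and that of Cyba 2.06.

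Ncf4 encodes p40phox, a cytosolic subunit whose PX domain binds a phosphoinositide of the phagosome membrane. Its ratio was 1.03 and 0.56 with the plain diet at 6 and 24 weeks, and 0.25 and 0.38 with high fat. It lay above 0 on all 4 arrays, as 19.0% of all probes did, and the atherogenic 6-week array stood highest. The mean was 0.55 ± 0.14 (limma SE, 4 arrays; 95% interval 0.22 to 0.89) and just missed the threshold (adjusted p = 0.0522). It passed in 6 alternatives run in limma, with adjusted p = 0.00418 with terms for fat and duration, 0.00475 with duration as a random block and 0.0224 with arrays scaled to a common spread. The others were separate centring of each probe series (0.0456), the gene level (0.0483) and probes with 1 gene symbol only (0.0493). With the fat and duration terms, calls higher over all probes rose from 1484 to 5315, and with the duration block to 4779. With added fat as a random block the adjusted p was 0.181, and without 1 array it lay between 0.0541 and 0.182.

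Rac2 encodes the Rac GTPase found mainly in blood cells. Its ratio was -0.65 and -0.59 with the plain diet at 6 and 24 weeks and -0.34 and -0.54 with high fat. All 4 arrays lay below 0, as for 18.9% of all probes, and the high-fat 6-week array stood nearest to 0. Rac2 fell by 0.53 on the log2 scale, with an SE of 0.10 (limma, 4 arrays; 95% interval -0.76 to -0.31; adjusted p = 0.0190). Leaving out either 24-week array ended the call, with -0.51 without the atherogenic one (limma adjusted p = 0.0980) and -0.53 without the high-fat one (0.0696). Whether the probe also takes up RNA of the close relative Rac1 was not tested.

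In order of the mean ratio, the probes ran from Cyba AGmmB151601 through Cybb, Ncf4 and Cyba AGmmA101614 to Rac2. The intervals of the first and second (1.35 to 1.97 and 0.56 to 1.53) overlapped, as did those of Cybb and Ncf4. Those of Cyba AGmmA101614 (-0.60 to -0.20) and Rac2 overlapped too. Between Ncf4 and the lower Cyba probe they did not. Ncf4 and Rac2 lie on the same chromosome, 15, with 16 genes between them in the RefSeq table of GRCm38.p6. Of 10 probes for 9 of those genes, 0 passed in either direction in limma, beside 10.3% of all probes.

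The second question was what the added high fat changed, as the mean of high-fat minus plain values within each duration. Cybb was lower with high fat by 0.89 on the log2 scale at 6 weeks and by 1.06 at 24 weeks. The fitted difference was -0.98 ± 0.14 (limma SE; 95% interval -1.32 to -0.64; adjusted p = 0.0175). It was the only subunit probe of 5 to pass, beside 7.07% of all probes lower and 8.75% higher, 15.8% together. At an unadjusted p under 0.05 there were 3 of 5, Cybb, Ncf4 and the higher Cyba probe, beside 36.8% of all probes. Once all arrays were scaled to a common spread the difference was -0.55 and just missed the threshold (limma adjusted p = 0.0510); as deposited, the plain arrays had the larger SD at both durations. Without the duration term it was called at an adjusted p of 0.0468.

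For the higher Cyba probe the difference was -0.46 ± 0.17 (limma SE; adjusted p = 0.0950), made of -0.70 at 6 weeks and -0.22 at 24 weeks. Its sign turned with arrays scaled to a common spread (0.29). For Ncf4 it was -0.48 ± 0.18 (limma SE; adjusted p = 0.103), with -0.78 at 6 weeks and -0.18 at 24 weeks. For both, most of the difference came from the 6-week pair, unlike Cybb. Rac2 differed by 0.18 (95% interval -0.17 to 0.53), and by -0.06 after scaling. The lower Cyba probe differed by -0.03 (95% interval -0.36 to 0.30), and by 0.04 with each probe series centred on its own median. Both plain arrays lay above both high-fat arrays for 4 of the 5 probes, beside 29.3% of all probes. Rac2 was the exception and had both plain arrays below both high-fat arrays, as did 34.2% of all probes. The lower Cyba probe was among the 4 by a very small margin, -0.402 (plain, 24 weeks) against -0.4053 (high fat, 6 weeks).

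The third question was whether 24 weeks differed from 6 weeks within a diet. None of the 5 subunit probes passed in limma, and 0 did at an unadjusted p under 0.05. Over all probes 0.0% passed and 9.53% had an unadjusted p under 0.05. For Cybb the difference was -0.02 (95% interval -0.36 to 0.32), with 0.07 on the plain diet and -0.11 with high fat. It was 0.11 (-0.28 to 0.51) for the higher Cyba probe and -0.17 (-0.59 to 0.26) for Ncf4. The latter held the largest single step, -0.47 on the plain diet against 0.13 with high fat. Rac2 differed by -0.07 (-0.42 to 0.28) and the lower Cyba probe by -0.02 (-0.36 to 0.31). All 5 intervals span 0, and the narrowest was that of the lower Cyba probe.

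**Figure D3:**
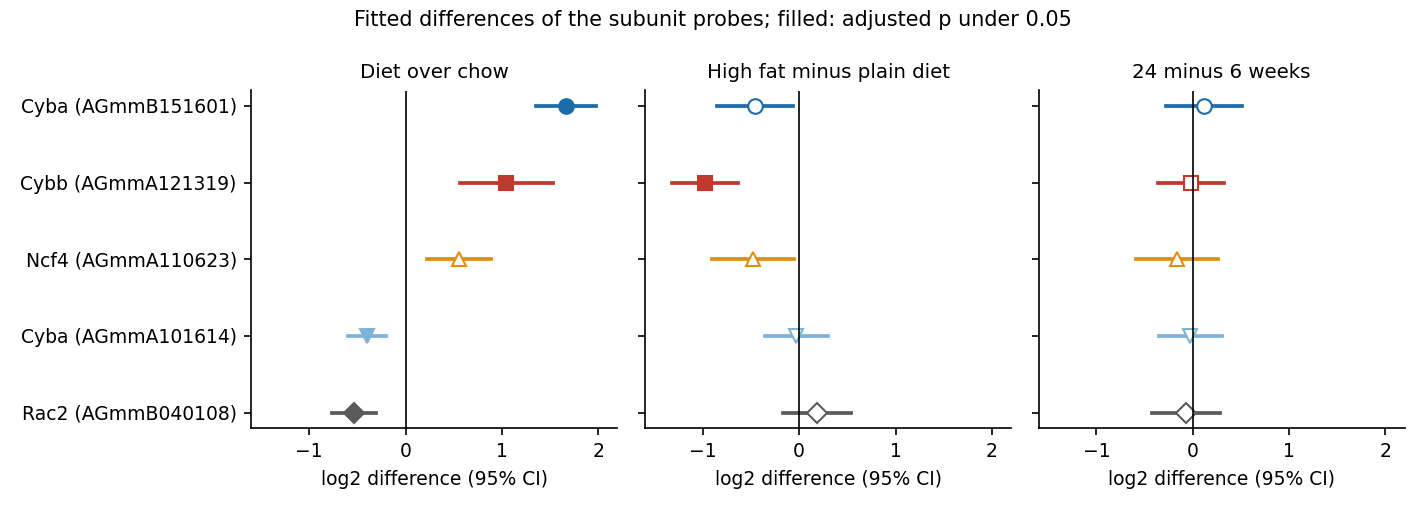
Fitted log2 differences with 95% intervals (horizontal axes) of the 5 subunit probes (vertical axis) for diet over chow, high fat minus plain diet, and 24 minus 6 weeks; filled symbols passed an adjusted p of 0.05 in limma. Of the 5 probes 4 passed for diet over chow, Cybb at -0.98 passed for high fat, and 0 passed for duration.

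On single arrays, which have no test, the subunit probes at least 2-fold higher than chow were Cyba AGmmB151601, Cybb and Ncf4 on the atherogenic 6-week array. On the atherogenic 24-week array they were the first 2 of these, and on each high-fat array Cyba AGmmB151601 alone. At 6 weeks 4.03% of all probes were that far above chow with the plain diet and 0.8% with high fat; at 24 weeks 1.93% and 1.04% were. Of the 5 subunit probes 0 were 2-fold lower on any array, beside 2.07% and 1.49% of all probes at 6 weeks and 1.74% and 1.77% at 24 weeks.

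Of 12 further genes listed for Nox enzymes and their partners, 6 were measured with 1 probe each. For diet over chow 0 of these probes passed in limma, beside 10.3% of all probes. At an unadjusted p under 0.05 there were also 0, beside 28.4% of all probes. Rac1, the widely expressed relative of Rac2, had a mean ratio of 0.06 ± 0.13 (limma SE), with values from -0.39 to 0.30. Nox4, the constitutively active oxidase of many non-phagocytic cells, stood at -0.11 ± 0.11. Noxo1, an organiser related to p47phox, stood at 0.02, and Cybc1, a chaperone that flavocytochrome b558 needs, at 0.08. Duoxa1 and Duoxa2, maturation factors of the dual oxidases, had means of 0.08 and 0.31. Duoxa2 stood at -0.02 and -0.24 at 6 weeks and at 0.80 and 0.70 at 24 weeks, a difference of 0.88 that did not pass (limma adjusted p = 0.216).

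Genes that assemble or trigger the oxidase were measured by 31 probes for 22 of 26 listed genes. In limma 9 of the 31 probes rose and 3 fell, beside 5.32% and 5.01% of all probes. The median ratio was 0.12, against -0.01 over all probes. The calcium-binding pair S100a9 and S100a8, which can carry arachidonic acid to the oxidase, had the highest means, at 2.70 ± 0.28 and 2.34 ± 0.25 (limma SE). The immune receptor adaptors Tyrobp and Fcer1g rose by 1.62 and 1.59, and Arhgdib by 1.22. Arhgdib and Vav3, an exchange factor for Rac, were the 2 probes called lower with high fat (-0.86 and -0.70), beside 7.07% of all probes. The 3 probes of the kinase gene Mapk14 had means of 2.29, -0.08 and -0.77, so that gene gave no single direction. The other 2 probes that fell were for the kinase genes Pik3cg (-0.66, with -0.01 on its other probe) and Prkca (-0.64).

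Transcription factors known to act on these promoters were measured by 11 probes for 6 of 8 listed genes. Of the 11 probes 2 rose and 3 fell in limma, beside 5.32% and 5.01% of all probes. Spi1, whose product PU.1 is named above, stood at 1.27 against 0.52 (plain diet against high fat) at 6 weeks and at 1.15 against 0.49 at 24 weeks. Both plain arrays lay above both high-fat arrays, as for Cybb and for 29.3% of all probes. Its mean was 0.86 ± 0.16 (limma SE; adjusted p = 0.0212), and its difference with high fat -0.70 ± 0.14 (adjusted p = 0.0271). Irf8, a partner of PU.1 in myeloid cells, rose by 0.65 ± 0.13. Of 4 Cebpb probes 2 fell, by 1.47 and 1.32, while the others stood at -0.01 and -0.16. Of 3 Runx1 probes 1 fell, by 0.96.

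Enzymes that supply NADPH or remove the products were measured by 12 probes for 9 of 10 listed genes, with a median of -0.31. In limma 0 were higher and 2 lower, beside 5.32% and 5.01% of all probes. Catalase, Cat, which breaks down hydrogen peroxide, fell by 0.57 ± 0.10. Malic enzyme, Me1, which makes NADPH, fell by 0.59 ± 0.14 on 1 of its 3 probes, with -0.54 and -0.32 on the others. Myeloperoxidase, Mpo, which turns hydrogen peroxide into hypochlorous acid in neutrophils, stood at -0.32 ± 0.09 and did not pass.

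Markers of cells that can carry the complex were counted the same way. For diet over chow 5.32% of all probes were called higher and 5.01% lower, and 28.4% had an unadjusted p under 0.05. Of 13 macrophage and monocyte probes 7 rose and 0 fell, with a median of 0.55; Itgam and Ly6c2 stood at -0.09 and -0.05 and did not pass. By array the medians were 0.84 (plain diet) and 0.42 (high fat) at 6 weeks, and 0.75 and 0.52 at 24 weeks. Of 11 pan-leukocyte probes 6 rose, with medians of 0.83 and 0.44 at 6 weeks and 0.82 and 0.41 at 24 weeks; Coro1a, an actin regulator of leukocytes, stood at 1.64 and 0.90, and at 1.61 and 1.07. Tyrobp and Fcer1g are in this list too. Of 11 neutrophil probes 2, S100a8 and S100a9, rose, and the elastase gene Elane fell by 0.64; the medians were 0.45 and 0.00 at 6 weeks and 0.56 and 0.10 at 24 weeks. Kupffer cell probes were mixed, with 4 of 9 higher, led by C1qb at 1.74, and 2 lower, Vsig4 at -1.33 and Fcna at -0.51. B cell probes (0 of 5 called) and dendritic cell probes (0 of 7) had medians of 0.20 and 0.06, with 2 in each list at an unadjusted p under 0.05. Of 10 T and NK cell probes 1, Nkg7, rose (0.46). Among non-leukocyte lists, 5 of 15 stellate cell probes rose, led by 1 probe of Col3a1 at 2.36. The other Col3a1 probes stood at 0.96 and -0.22 and did not pass. Of 7 endothelial probes 1 rose, for Pecam1 (0.48, with -0.02 on its other probe). Bile duct probes had 0 of 5 called (1 at an unadjusted p under 0.05). Of 10 hepatocyte probes 3 fell, 2 of G6pc and 1 of Alb, and 5 of the 10 lay at values repeated by many probes of an array, among them that of Alb.

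The marker lists were also counted for high fat against the plain diet, where 7.07% of all probes were called lower and 8.75% higher. In limma 3 of the 13 macrophage and monocyte probes were called lower with high fat (Itgax, Cd14 and 1 of 2 probes of Adgre1) and 1 was called higher (Ly6c2, 1.07). The lysozyme gene Lyz1 stood between 2.09 and 2.35 on all 4 arrays, and Cd68 between 0.73 and 1.01. Among pan-leukocyte probes 3 of 11 were called lower with high fat, and among neutrophil probes 3 of 11 (Camp, Csf3r and Ngp). Of 9 Kupffer cell probes 1, Vsig4, was called lower (-1.18). Of 10 T and NK cell probes 2 were called lower, Cd3d (-0.97) and 1 of 2 probes of Cd8a (-0.63). B cell and dendritic cell lists had 0 called. Non-leukocyte lists had such calls too, with 2 of 5 bile duct probes (Krt19 and 1 probe of Krt7, median of the list -0.64). The other Krt7 probe stood at -0.14 and did not pass. In the hepatocyte list 4 of 10 probes were called lower (2 of Alb, and Serpina1e and Ttr, median of the list -0.56), all 4 at repeated values. Among 15 stellate cell probes 2 were called lower and 1 higher, and among 7 endothelial probes 0 were called. The part of cell numbers in the subunits' ratios was not tested.

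**Figure D4:**
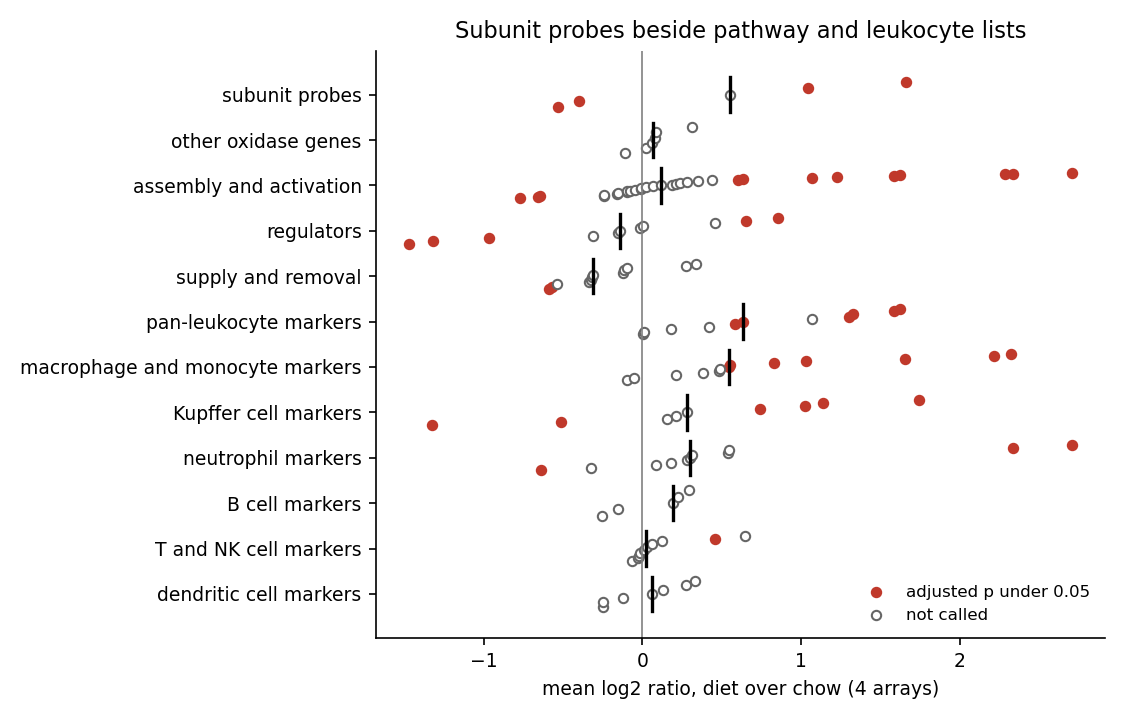
Mean log2 ratio of diet over chow (horizontal axis, 4 arrays) of each probe in the subunit, pathway and leukocyte lists (vertical axis); red points passed an adjusted p of 0.05 in limma and black bars mark list medians. The subunit median of 0.55 is the Ncf4 value, and the 5 probes ran from -0.53 to 1.66, with 2 called higher and 2 lower. Macrophage and monocyte probes also had a median of 0.55, with 7 of 13 called higher and 0 lower. Over all probes 5.32% were called higher and 5.01% lower. The other oxidase genes lay at 0.07.

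The genes whose ratios lay closest to a subunit's were ranked by Euclidean distance over the 4 log2 ratios, among 16524 or 16525 candidate probes. For Cybb they were Sh3bgrl3 (distance 0.17), the cyclin gene Ccnb2 (0.24) and Anxa1 (0.25), a calcium-dependent phospholipid-binding protein of leukocytes. Anxa1 stood at 1.50 (plain diet) and 0.56 (high fat) at 6 weeks, and at 1.78 and 0.61 at 24 weeks. For the higher Cyba probe they were Gab3 (0.09), an adaptor expressed in macrophages, the mitochondrial dehydrogenase Hsd17b10 (0.15) and Anxa2 (0.15). For Ncf4 they were Sdf4 (0.08), the histone gene H2ax (0.09) and Qrich1 (0.11). The lower Cyba probe was nearest to Gnb3, Bmp7 and Poll (0.04 to 0.05), and Rac2 to Dtnb (0.03), Prl (0.09) and Ndrg4 (0.09). With 4 points per probe, such closeness describes the arrays only.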

How the data were processed

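Per the labels and the series' description of its design, amplified liver RNA went onto AceGene Mouse Oligo Chip 30K arrays, with diet in Cy5 and chow in Cy3, read with GenePix Pro 4.1 and LOWESS-normalized by the authors in GeneSpring 7.2. The sources used here name no background correction or spot filter. The deposited values are log ratios of diet over chow, taken here to be log10. Scale and centring are not stated, and the direction comes from the dyes. On the atherogenic 6-week array the interquartile range would span 13.5% in ratio with base 2 and 52.4% with base 10. Median deposited values were -0.019, 0.006, -0.005 and 0.006 (atherogenic 6-week, high-fat 6-week, atherogenic 24-week and high-fat 24-week arrays).

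Values were converted to log2 and otherwise used as deposited. Of 28845 probes 975 lacked a value on some array and were left out. The platform annotation gave 17637 probes 1 symbol, 64 several and did not list 11144; symbols were updated through RefSeq (GRCm38.p6), which matched 17385. No subunit probe lay within 0.003 of a deposited value repeated by unusually many probes on an array.

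Tests used limma 3.58.1 (lmFit, eBayes, two-sided, Benjamini-Hochberg over all probes) in R 4.3.3. For diet over chow the 4 arrays' mean was tested against 0 (3 residual degrees of freedom). An additive model gave high fat and duration (1 residual degree of freedom). With 1 array per condition, p-values rest on how conditions vary and not on how animals vary, and whether the arrays had separate chow RNA is unknown. The tests were also run on simulated noise, independent between arrays and of equal spread on each. There diet over chow held its error rate closely, while the tests on 1 residual degree of freedom made more false calls than their threshold allows. The real arrays differed in SD (0.37 to 0.53). Between arrays alike in added fat limma estimated a correlation of 0.52, and between those alike in duration -0.52. The simulation therefore cannot show the error rates on these data.

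The subunits, lists and naming rules were chosen with earlier results of these data known. From each list at most 6 genes called for diet over chow were named, by size, besides those a comparison turned on. Other list genes named, such as those behind a count of 5 or fewer, were chosen after their values were seen. Nox genes were all named. For each subunit probe the 3 nearest genes by distance were named.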

Additional observations from a re-analysis of the deposited data

Results flagged for a closer look

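The ratio of Cybb to chow passed a test of the difference between the diets. High fat minus plain atherogenic was -0.98 on the log2 scale (limma, adjusted p = 0.0175), with the lower value on both high-fat arrays. With arrays scaled to a common spread it was -0.55 and just missed the threshold (limma adjusted p = 0.0510). As deposited, 15.8% of all probes passed this test on 1 residual degree of freedom. Of the other 4 subunit probes none passed this test, and whether Cybb differed from them in its response was not tested.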

How the results depend on the processing

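Each condition had 1 array, and depth and spot intensity were not used here, so signal over background is unknown. No paired analysis was possible because the labels give no replicate numbers that groups share; duration, which each diet shares, was used as a term and as a random block instead. Leaving out arrays was not possible for high fat and duration, where no residual degree of freedom remains.

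For diet over chow all 5 probes kept their direction in every alternative run. Leaving out 1 array gave 1 to 2 subunit probes called higher and 0 to 1 called lower, against 2 and 2. The count called higher was 3, with Ncf4 added, in 5 alternatives: arrays scaled to a common spread, duration as a random block, separate centring of probe series, probes with 1 gene symbol only, and terms for fat and duration. With added fat as a random block 0 were called lower: Rac2 and the lower Cyba probe had adjusted p = 0.0926 and 0.151 (limma). Over all probes, calls ranged from 294 to 5315 higher and from 395 to 4866 lower, against 1484 and 1396. The low ends came without the atherogenic 24-week array and the high ends with terms for fat and duration.

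For high fat, scaling the arrays to a common spread gave 0 subunit probes called lower, against 1. It turned the sign of the higher Cyba probe (0.29) and of Rac2 (-0.0563), and for duration that of Cybb (0.0712). Centring each probe series separately, chosen after seeing the data, turned the lower Cyba probe for high fat (0.0399). None of these reversed values passed in limma, before or after. Over all probes, high-fat calls ranged from 486 to 2898 higher and from 254 to 2348 lower, the low ends without the duration term. For duration, 1 probe was called lower among probes with 1 gene symbol.

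Read as natural logarithms or as log2, the deposited values put 0 subunit probes at 2-fold on any array, against 3, 1, 2 and 1 in the order atherogenic 6-week, high-fat 6-week, atherogenic 24-week and high-fat 24-week.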
